A study of Mus musculus with 12 samples.

Results

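Apolipoproteins and chylomicron assembly were followed through 10 genes of intestinal fat absorption, the apolipoprotein genes Apoa1, Apoa4, Apob, Apoc2 and Apoc3 together with Mttp, Fabp1, Fabp2, Cd36 and Dgat1. They were chosen by name for their place in fat uptake and in the assembly of chylomicrons, and each matched 1 row of the 34245 genes in the count table. Earlier results of these data were known when the genes were chosen. The study itself counts Apoc3 among the known enterocyte markers that its AE expressed. The libraries came from sorted cells of the small intestine of young and aged male mice of the strain C57BL/6 Lgr5-GFP, an Lgr5-EGFP-IRES-creERT2 knock-in, at about 8 and about 27 months of age. Intestinal stem cells (ISC) were GFPhigh DAPI- cells of crypt suspensions, and adult enterocytes (AE) were Epcamhigh CD31- CD45- DAPI- cells of villus suspensions. The labels name no treatment, and each of the 4 groups (young ISC, aged ISC, young AE and aged AE) had 3 libraries. The GFP reporter is driven by the Lgr5 locus and marks the stem cells, whereas the villus gate can hold every Epcam-positive cell type. Libraries are numbered 1 to 3 within a group. ISC and AE libraries of the same age and number share a library code in the count table, and whether a code stands for 1 mouse is not stated.

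Library totals ran from 11893817 to 110794420 counts. Young AE 3 was by far the deepest, and the next library had 26796461 counts. The sorted cells were checked against markers outside the 10 genes. All 8 stem cell markers were called lower in AE than in ISC at both ages, and all 10 enterocyte markers outside the 10 genes were called higher. Among AE libraries the summed stem cell markers were highest in young AE 2, at 619 CPM against 89.7 to 207 CPM in the others. Proliferation markers summed to 329 CPM there against 79.8 to 117 CPM, and Paneth cell markers to 227 CPM against 52.0 to 91.5 CPM. The summed level of the enterocyte markers was 34654 to 49938 CPM (counts scaled to library size) in AE and 1161 to 3940 CPM in ISC, so ISC libraries held enterocyte transcripts at a lower level. Goblet cell markers summed to 27676 to 56453 CPM in AE, and 5 of 6 of them were called higher in AE than in ISC at both ages. Enteroendocrine markers summed to 3181 to 11916 CPM in AE, with 6 of 7 called higher at both ages. In aged mice 1 marker of each of these 2 lists was called lower. In such bulk samples fewer cells of a type and less RNA per cell cannot be told apart. The methods of the study name 3 mice of different age in each cohort, and no label ties a library to a mouse.

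Dietary fat reaches the enterocyte as fatty acids and monoacylglycerol. CD36 is a fatty acid translocase of the cell surface, the fatty acid binding proteins FABP1 and FABP2 carry the lipid through the cytosol, and DGAT1 makes the last step of triglyceride synthesis. In the endoplasmic reticulum the microsomal triglyceride transfer protein, product of Mttp, loads lipid onto apolipoprotein B, and the particle leaves the cell as a chylomicron. APOA1, APOA4, APOC2 and APOC3 are further proteins found on chylomicrons.

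Apoa1, Apoc3 and Apoa4 lie next to each other on chromosome 9 of GRCm38, where they span 14880 bases, from 46228580 to 46243459, with Apoc3 on the minus strand between its neighbours. Apob lies on chromosome 12, Apoc2 on chromosome 7, Mttp and Fabp2 on chromosome 3, Fabp1 on chromosome 6, Cd36 on chromosome 5 and Dgat1 on chromosome 15. RefSeq promoter windows of GRCm38.p6, which hold 250 bases before and 50 after an annotated start, were at hand for 8 of the 10 genes. The windows of 5 genes are shown, those of the 4 genes with the highest levels in AE (Fabp2, Apoa1, Fabp1, Apoa4) and that of Apob, which encodes the backbone of the particle. Capitals mark the only motif found, TATAAA, on the strand of the gene. All 5 windows are on the plus strand, at chr9:46228380-46228679, chr9:46240594-46240893, chr12:7977427-7977726, chr6:71199629-71199928 and chr3:122894822-122895121 in the order printed.
Apoa1: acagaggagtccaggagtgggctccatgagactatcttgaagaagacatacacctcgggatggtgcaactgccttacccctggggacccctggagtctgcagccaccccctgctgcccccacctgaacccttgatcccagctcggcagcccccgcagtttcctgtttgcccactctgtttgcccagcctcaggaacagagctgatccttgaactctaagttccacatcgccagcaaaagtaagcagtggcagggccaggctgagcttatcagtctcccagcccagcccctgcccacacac
Apoa4: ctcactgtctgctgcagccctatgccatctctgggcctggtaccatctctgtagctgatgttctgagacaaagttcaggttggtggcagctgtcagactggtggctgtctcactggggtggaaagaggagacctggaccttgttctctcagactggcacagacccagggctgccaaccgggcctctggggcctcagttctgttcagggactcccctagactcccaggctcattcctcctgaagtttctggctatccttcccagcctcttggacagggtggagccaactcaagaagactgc
Apob: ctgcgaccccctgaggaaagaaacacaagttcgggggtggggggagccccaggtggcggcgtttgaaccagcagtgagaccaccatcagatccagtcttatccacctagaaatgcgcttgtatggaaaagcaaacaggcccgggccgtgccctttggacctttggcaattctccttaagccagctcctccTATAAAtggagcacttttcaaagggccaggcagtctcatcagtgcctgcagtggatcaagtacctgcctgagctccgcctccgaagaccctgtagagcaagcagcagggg
Fabp1: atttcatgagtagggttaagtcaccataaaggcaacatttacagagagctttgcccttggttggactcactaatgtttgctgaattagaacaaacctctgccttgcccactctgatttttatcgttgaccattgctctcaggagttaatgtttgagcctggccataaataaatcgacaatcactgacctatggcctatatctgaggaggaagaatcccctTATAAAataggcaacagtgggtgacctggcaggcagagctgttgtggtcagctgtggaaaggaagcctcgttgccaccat
Fabp2: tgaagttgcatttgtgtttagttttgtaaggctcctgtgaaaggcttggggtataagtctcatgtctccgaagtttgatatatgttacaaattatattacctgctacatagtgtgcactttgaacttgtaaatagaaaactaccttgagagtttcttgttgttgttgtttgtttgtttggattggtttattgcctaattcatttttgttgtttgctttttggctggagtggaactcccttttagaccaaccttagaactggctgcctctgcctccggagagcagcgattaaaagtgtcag
TATAAA was found in 2 of the 8 windows, 60 bases before the start of Apob and 30 bases before that of Fabp1, and in 13.6% of all 32851 windows. The letters AGATAA of a GATA site and CAAAGTCCA of an HNF4 site, searched on both strands as was TATAAA, were in 0 of the 8 windows, against 11.2% and 0.475% of all windows. Distances were counted from the RefSeq start of the window. The count table gives other starts for Apob (7977648) and Fabp1 (71199827), so the distances depend on the start used. These are matches of letters and not binding data.

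The 10 genes together took 3.76 to 5.81% of all counts in AE libraries and 0.138 to 0.910% in ISC libraries. The highest of them ranked between place 2 and place 5 among all genes in each AE library, and between place 18 and place 387 in ISC libraries. On the scale of CPM per kilobase of exon, the level in young AE was highest for Fabp2 at 12846 ± 5339 (SD, n = 3), followed by Apoa1 at 10564 ± 1239, Fabp1 at 9061 ± 6616 and Apoa4 at 6267 ± 1459. Neighbours in this order overlapped, while all libraries of Apoa4 were below those of Fabp2 and Apoa1. A gap without overlap followed before Apoc3 at 1267 ± 395, Apoc2 at 777 ± 139.6 and Mttp at 751 ± 115, which again overlapped with their neighbours. Dgat1 at 487 ± 66.2, Apob at 327 ± 94.8 and Cd36 at 88.3 ± 95.3 followed, each below the preceding gene in all libraries. In aged AE the 10 genes stood in the same order except that Apoa4 at 9719 ± 2683 came before Fabp1 at 9024 ± 4057, and these overlapped. In ISC the order began with Fabp1 and Fabp2 and ended with Cd36 at both ages, and Dgat1, at rank 8 in AE, held rank 5 in young and rank 4 in aged ISC at 85.8 ± 23.3 and 77.4 ± 13.3 CPM per kilobase. Exon length counts every annotated exon of a gene, which lowers the values of genes with many alternative exons.

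**Figure D1:**
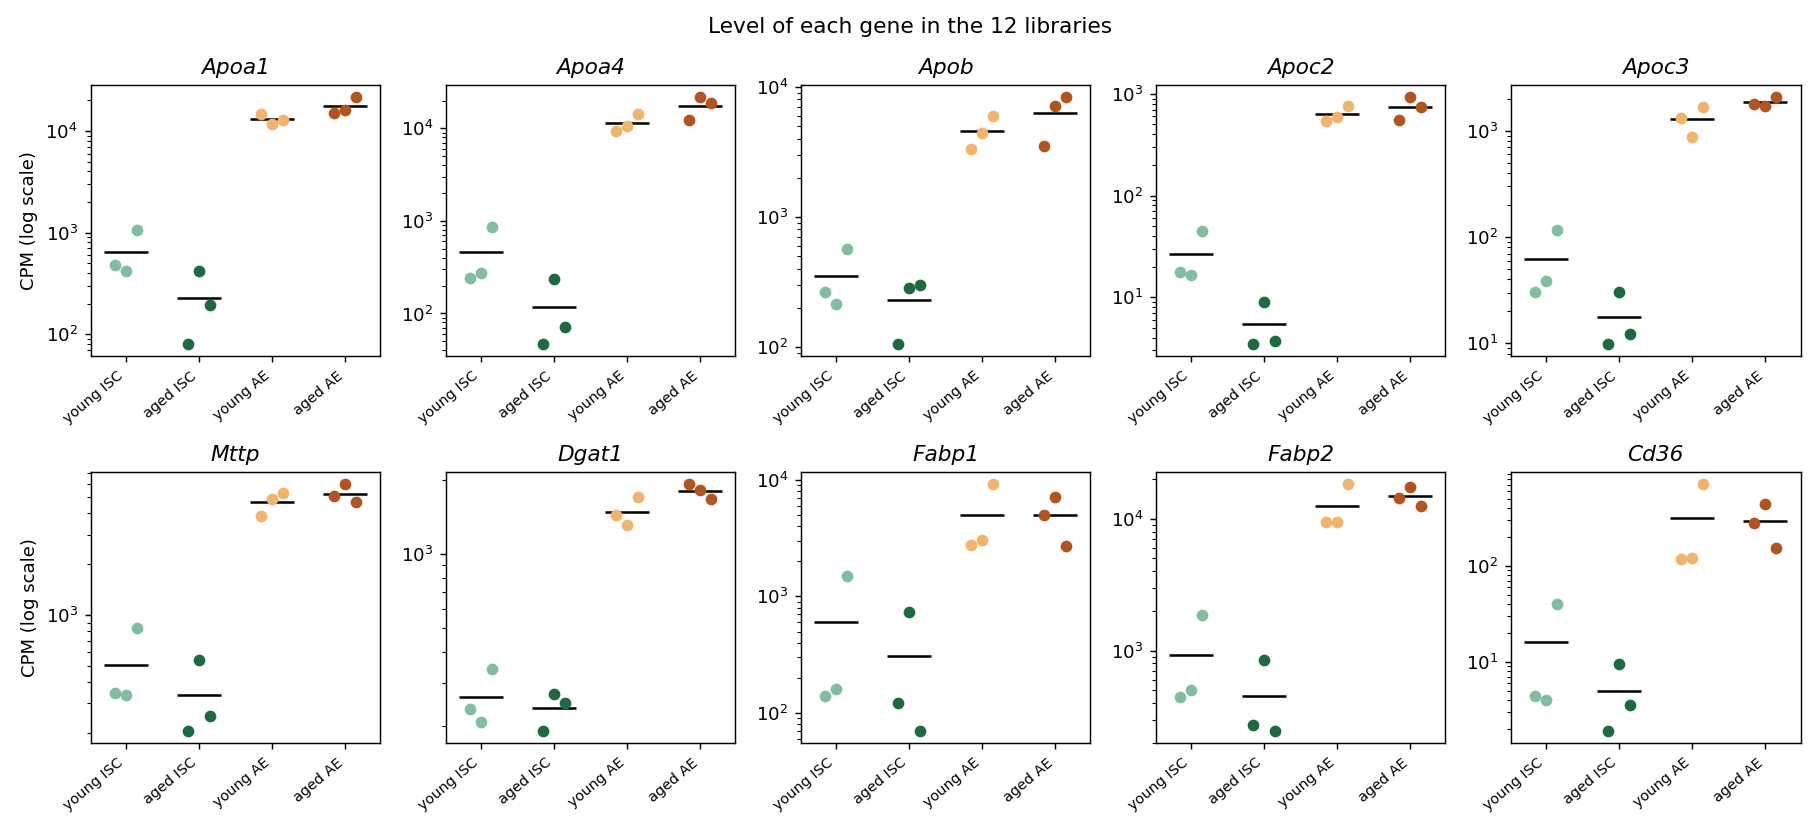
Level of each of the 10 genes in CPM on a log axis (1 point per library, 3 libraries per group, horizontal line at the group mean; each panel has its own axis). All 6 AE libraries lie above all 6 ISC libraries in every panel, and young ISC 3, the rightmost light green point, is the highest ISC library throughout.

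The first question the design allows is how the sorted enterocytes differed from the stem cells. All 10 genes were higher in each AE library than in each ISC library at both ages, which held for 32.3% of all genes tested in young and 33.4% in aged mice. In young mice 9 of 10 were called higher in AE by edgeR's quasi-likelihood test at a Benjamini-Hochberg adjusted p (FDR) under 0.05, where 28.9% of 16681 genes tested were called higher. In aged mice 10 of 10 were called, where 30.6% of 15855 genes were. Across all 10 genes the median log2 fold change was 4.0 in young mice, from 2.50 for Dgat1 to 4.62 for Apoa4, and that of all genes was 0.15. In aged mice it was 5.39, from 2.87 for Dgat1 to 7.16 for Apoa4, with -0.13 for all genes. Without young ISC 3 the young median was 4.96, and without aged ISC 2 the aged median was 6.22.

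**Figure D2:**
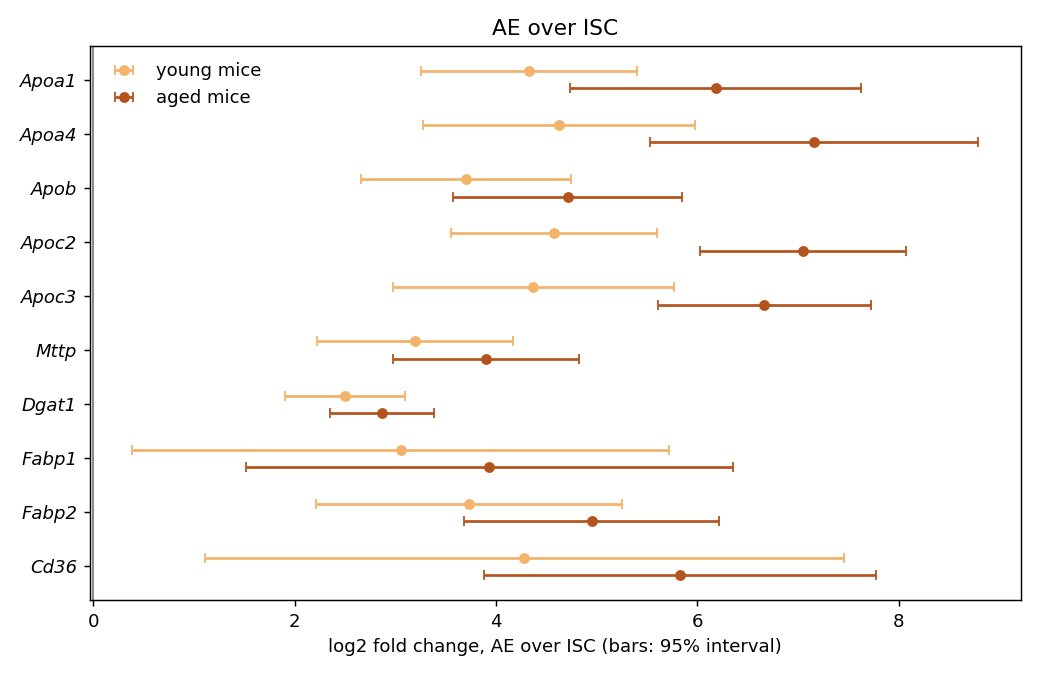
Log2 fold change of AE over ISC for the 10 genes in young and in aged mice (points: estimate of edgeR's quasi-likelihood fit, bars: 95% interval, 3 libraries per group). All intervals lie above 0, with the lowest bound at 0.38 for Fabp1 in young mice, and each estimate is higher in aged than in young mice.

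Apoa1 encodes the main protein of high-density lipoprotein and a surface protein of chylomicrons. Its level was 479, 419.8 and 1052 CPM in the young ISC libraries 1 to 3 and 80.5, 415 and 193 CPM in the aged. In AE it stood at 14657, 11604 and 12911 CPM in young and at 15202, 16171 and 21471 CPM in aged mice. The ISC libraries spread widely and the AE libraries little, and every aged AE library was above every young one while every aged ISC library was below every young one. AE exceeded ISC 20.1-fold in young mice, a log2 fold change of 4.33 (SE 0.47, edgeR FDR 0.000218), and 72.7-fold in aged mice (6.18, SE 0.65, edgeR FDR 1.45e-05).

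Apoa4, an apolipoprotein that the gut secretes in large amounts after a fatty meal, had 244, 275 and 862 CPM in the young and 47.0, 233 and 71.4 CPM in the aged ISC libraries. Its level in AE was 9281, 10490.5 and 14353 CPM in young and 12242, 21701 and 18978 CPM in aged mice. Young ISC 3 and aged ISC 2 were the highest libraries of their groups, and the groups of AE overlapped by age. AE exceeded ISC 24.7-fold in young mice (log2 4.62, SE 0.59, edgeR FDR 0.000417) and, as the largest fold of the 10 genes, 143-fold in aged mice (log2 7.16, SE 0.73, edgeR FDR 1.23e-05). The gene Gm10680 on the opposite strand shares 632 exon bases with Apoa4, and its counts were at most 0.754% of those of Apoa4 in any library.

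Apoc3, which encodes an inhibitor of lipoprotein lipase, was measured at 30.7, 38.9 and 116 CPM in the young and at 9.88, 30.5 and 12.3 CPM in the aged ISC libraries. In AE it was at 1309.8, 873 and 1673 CPM in young and 1798, 1726 and 2076 CPM in aged mice. As for Apoa1, its neighbour, the aged libraries lay wholly below the young in ISC and wholly above them in AE. The gaps were small, with 30.5 against 30.7 CPM in ISC and 1726 against 1673 CPM in AE for the nearest libraries. AE over ISC came to log2 4.37 (SE 0.59, edgeR FDR 0.000873) in young and 6.67 (SE 0.47, edgeR FDR 1.27e-06) in aged mice.

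Apoc2 encodes the cofactor that lipoprotein lipase needs. It had 17.8, 16.6 and 44.8 CPM in young ISC, from 279, 293 and 799 counts, and 3.48, 9.06 and 3.74 CPM in aged ISC, from 124, 168 and 84 counts. In AE it reached 546, 589 and 761 CPM in young and 556, 927 and 740.3 CPM in aged mice. The highest aged ISC library was below the lowest young one, and the AE groups overlapped. AE exceeded ISC 23.9-fold in young (log2 4.58, SE 0.44, edgeR FDR 0.000194) and 132-fold in aged mice (log2 7.05, SE 0.45, edgeR FDR 1.07e-06). The gene Gm44805 shares 646 exon bases with Apoc2 on the same strand, and its row held 99.9 to 100% of the counts of Apoc2 in every library, so the same reads stood in both rows.

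Apob encodes the backbone protein of the chylomicron. Its level was 266, 214 and 570.0 CPM in the young and 105, 281 and 299 CPM in the aged ISC libraries, and these groups overlapped. In AE the libraries 1 to 3 had 3324, 4398 and 5951 CPM in young and 3496, 7064 and 8312 CPM in aged mice. The AE groups overlapped by age as well. Between AE and ISC the log2 difference was 3.70 (SE 0.46, edgeR FDR 0.000357) in young and 4.71 (SE 0.51, edgeR FDR 1.79e-05) in aged mice.

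The estimates for Mttp and Dgat1, the genes of lipid transfer and triglyceride synthesis, were smaller than those of the 5 apolipoprotein genes. Mttp was at 346, 336 and 841 CPM in young ISC, 206, 540.5 and 252 CPM in aged ISC, 3867, 4849 and 5261 CPM in young AE and 5064, 5983 and 4665 CPM in aged AE. Dgat1 was at 236, 208 and 343 CPM, 192, 270.4 and 248 CPM, 1447, 1309 and 1708 CPM and 1931, 1828 and 1683 CPM in the same groups. Both genes overlapped by age in each cell type, and the coefficient of variation of Dgat1 was the lowest of the 10 genes in every group but young AE, where that of Apoa1 was lower. Mttp was 9.17-fold higher in young AE than in young ISC (log2 3.20, SE 0.43, edgeR FDR 0.000496) and 15.0-fold higher in aged mice (log2 3.90, SE 0.42, edgeR FDR 1.55e-05). For Dgat1 the folds were 5.67 (log2 2.50, SE 0.26, edgeR FDR 0.000192) and 7.29 (log2 2.87, SE 0.23, edgeR FDR 2.35e-06). In ISC, Dgat1 thus kept 17.6% of the mean AE level of young and 13.0% of that of aged mice, the largest share of the 10 genes at each age.

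Of the genes for uptake and transport of fatty acids, Fabp1 and Cd36 had the largest coefficients of variation of the 10 genes in every group but aged ISC, where Apoa4 came between them. Fabp1 was at 141, 160.0 and 1506 CPM in the young and at 122, 740.4 and 70.5 CPM in the aged ISC libraries. In AE it was at 2755, 3046 and 9232 CPM in young and 5049, 7203 and 2718 CPM in aged mice. The highest young ISC library exceeded the lowest 10.7-fold, and the same libraries stood out in both cell types, number 3 among the young and number 2 among the aged. The log2 difference of AE from ISC was 3.05 (SE 1.11) in young mice, where edgeR's FDR of 0.0547 made Fabp1 the 1 gene of the 10 not called. In aged mice it was 3.93 (SE 1.01, edgeR FDR 0.0125).

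Cd36 followed the same libraries. It was at 4.40, 4.03 and 40.3 CPM in young ISC, from 69, 71 and 718 counts, and at 1.94, 9.60 and 3.60 CPM in aged ISC, from 69, 178 and 81 counts. In AE its level was 119, 119.6 and 712 CPM in young and 279.6, 442 and 154 CPM in aged mice. Young ISC 3 and young AE 3 were far above the others of their groups, and aged libraries 2 were again the highest. The log2 difference of AE from ISC was 4.28 (SE 1.30, edgeR FDR 0.0322) in young and 5.83 (SE 0.79, edgeR FDR 0.000997) in aged mice. The call in young mice was lost without young ISC 1, young ISC 2, young AE 2 or young AE 3, with values between 2.81 and 4.62.

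Fabp2, the intestinal fatty acid binding protein, showed the order again with a smaller range. Its level was 446, 505 and 1847 CPM in young ISC, 273, 845 and 247 CPM in aged ISC, 9416, 9427 and 18345 CPM in young AE and 14473, 17522 and 12432 CPM in aged AE. The groups overlapped by age in both cell types. Between AE and ISC the log2 difference was 3.73 (SE 0.66, edgeR FDR 0.00200) in young and 4.95 (SE 0.57, edgeR FDR 2.71e-05) in aged mice.

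Since libraries that share a code deviated together, the difference of AE and ISC was also taken within each code. For Cd36 it was 4.73, 4.86 and 4.14 on the log2 scale in the young codes 1 to 3 and 7.11, 5.51 and 5.39 in the aged. In young AE the highest library of Cd36 exceeded the lowest 5.99-fold. The SD of the 3 young differences of Cd36, 0.38, was below the SD of the log2 levels in young ISC, 1.87, and in young AE, 1.49. In aged mice the SD of the differences, 0.96, lay between those of aged ISC, 1.14, and aged AE, 0.76. For Fabp1 the differences were 4.29, 4.25 and 2.62 in young and 5.38, 3.28 and 5.27 in aged mice, smallest in the codes where Fabp1 was highest, with an SD of 0.95 in young mice (1.92 in ISC and 0.97 in AE) and 1.18 in aged mice (1.77 in ISC and 0.71 in AE). With the code as a replicate block, edgeR put AE over ISC in young mice at 3.73 (SE 0.42, FDR 0.000356) for Fabp1 and at 4.56 (SE 0.21, FDR 1.96e-05) for Cd36, and all 10 genes were called higher, where 29.4% of all genes were. Over the 14 alternatives to the reported fit, the FDR of Fabp1 in young mice ran from 2.84e-05 to 0.183. Young ISC 3 was the highest young ISC library for 10 of the 10 genes and young AE 3 the highest young AE library for 9, all but Apoa1. Aged ISC 2 was the highest aged ISC library for 9 of 10 genes, all but Apob, and aged AE 2 the highest aged AE library for 6.

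Markers of gut region and of villus position were set beside this order of libraries. The summed level of 4 distal markers, among them the ileal bile acid binding protein gene Fabp6 and the bile acid transporter gene Slc10a2, was 4144, 3829 and 3472 CPM in young AE and 4895, 4458 and 5273 CPM in aged AE. It was lowest in young AE 3 and aged AE 2, the AE libraries with the highest Fabp1 and Cd36. The mean log2 CPM of the same 4 markers was 8.42, 8.77 and 7.70 in young AE. In aged AE this mean was 8.79, 9.20 and 9.13, and aged AE 2 was then the highest of its group. Fabp6 itself was at 279.6, 286 and 45.6 CPM in young AE and at 508, 524 and 505 CPM in aged AE, where its libraries were alike although those of Fabp1 were not. The sum of 4 proximal markers was 271 to 377 CPM in young AE, highest in young AE 2, and 224 to 343 CPM in aged AE, highest in aged AE 2. The sum of 3 villus base markers was 1836 CPM in young AE 3 against 4443 and 5107 CPM in the other young AE libraries, and 2080 to 2856 CPM in aged AE. Of 5 villus tip markers the sum was 728 to 1246 CPM in young AE, highest in young AE 3. In aged AE the tip sum was 758, 1120 and 1654 CPM. It was highest in aged AE 3, the aged AE library with the lowest Fabp1 and Cd36. In ISC the distal sum was 56.6 to 327 CPM, highest in young ISC 3, and the proximal sum 222 to 294 CPM. No marker list was given a test against Fabp1 or Cd36, and the part of region and villus position in their spread was not tested. Within a cell type, pairs of the 10 genes correlated over 6 libraries with a median Pearson coefficient of 0.871 in ISC (0.627 to 0.992) and of 0.607 in AE (-0.251 to 0.982), where Fabp1 with Cd36 had the highest value. These libraries share codes and age, and the coefficients are a description.

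The next question was whether the genes changed with age in stem cells. In ISC edgeR called 0 of 10 genes and 0% of 15552 genes tested, of which 784 had an unadjusted p under 0.05. The estimates of all 10 genes were below 0, with a median log2 fold change of aged over young of -1.26 against 0.01 for all genes. The aged libraries lay wholly below the young for 4 of 10 genes, Apoa1, Apoa4, Apoc2 and Apoc3, which was the case for 4.41% of all genes. It was also the case for 4 of the 10 enterocyte markers outside these genes. The highest aged and lowest young library were close for Apoc3 (30.5 and 30.7 CPM), Apoa1 (415 and 419.8 CPM) and Apoa4 (233 and 244 CPM). For Apoc2 they were further apart (9.06 and 16.6 CPM). Apoc2 had the lowest estimate, -2.31 (SE 0.53, 95% interval -3.55 to -1.07, edgeR FDR 0.678). With DESeq2 it was the 1 gene of the 10 called, at -2.28 with an FDR of 0.000713, where 0.373% of all genes were called. Over its 12 alternatives the FDR of Apoc2 ran from 0.000713 to 1.00, and DESeq2 was the 1 alternative that called it. For Apoa4 the estimate was -1.97 (-4.0 to 0.07), for Apoc3 -1.83 (-3.50 to -0.15) and for Apoa1 -1.49 (-3.11 to 0.13). At the other end, Dgat1 was at -0.14 (-0.63 to 0.35), an interval that holds no change of as much as 1 on the log2 scale.

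Single libraries set the size of these estimates. Without young ISC 3 the median of the 10 genes was -0.06, Apoc2 was at -1.70, and Fabp1, Cd36 and Dgat1 lay above 0 at 1.06, 0.20 and 0.10. Without aged ISC 2 the median was -2.36. Relative to the mean of young ISC 1 and 2, the median of the 10 genes was 2.96 in young ISC 3 and 0.449, 1.19 and 0.494 in the aged ISC libraries 1 to 3. The 10 enterocyte markers outside these genes, such as Sis, Vil1 and Lct, had medians of 1.53 in young ISC 3 and 0.331, 0.908 and 0.603 in the aged libraries. Their own aged over young estimates were below 0 for 10 of 10 markers with a median of -0.90, and 0 of 10 were called. Their summed level was 2436 to 3940 CPM over the young libraries and 1161 to 2809 CPM over the aged, with none of the markers at 0. The part of enterocyte RNA in the estimates of the 10 genes was not tested. Apoc2 in ISC was at 4.18% of its mean AE level in young and 0.732% in aged mice, Apoa4 at 4.05 and 0.664%, and Lct, the lactase gene, at 3.95 and 0.877%. For Dgat1, Sis, Vil1, Dpp4 and Slc5a1 the 2 ages were closer, with Vil1 at 14.4 and 9.36% and Sis at 7.60 and 5.13%.

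**Figure D3:**
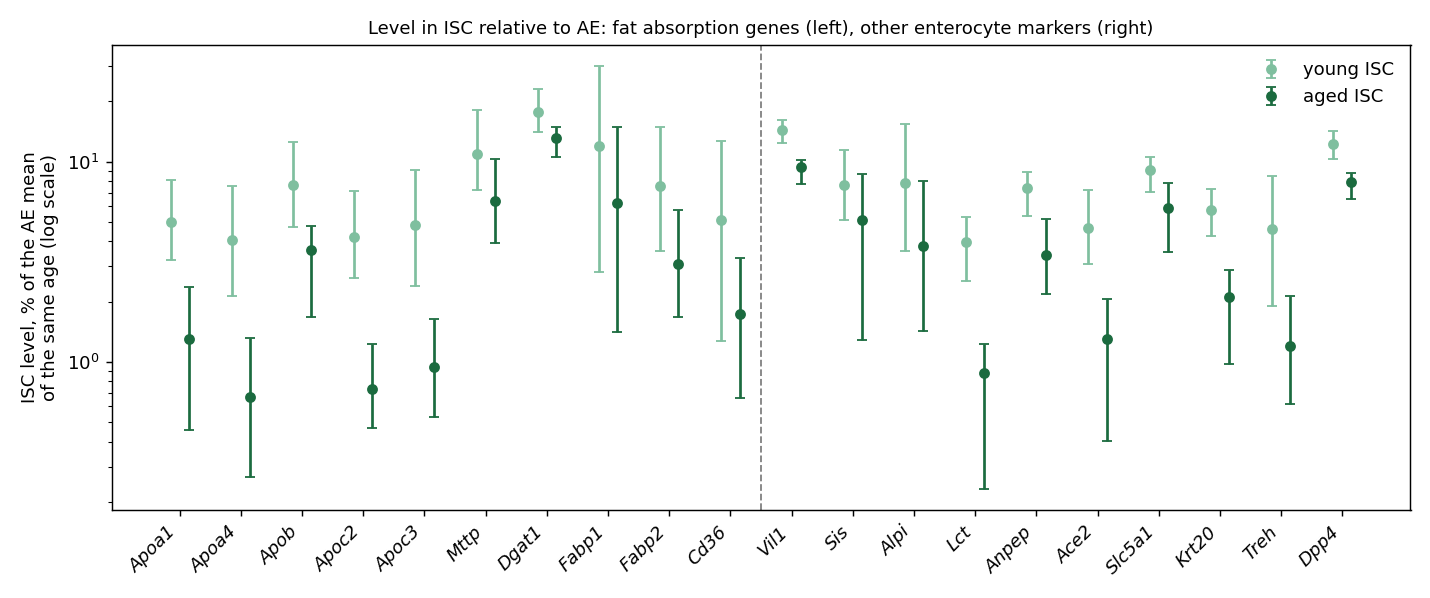
Level in ISC as a percent of the mean AE level of the same age (log axis), for the 10 genes (left of the dashed line) and 10 other enterocyte markers (right). Points are the mean of 3 ISC libraries and bars run from the lowest to the highest library; the point of aged ISC lies below that of young ISC for every gene, and both sides of the line hold genes near 1% in aged ISC.

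In AE the estimates by age were smaller. In it edgeR called 0 of 10 genes, DESeq2 also called 0, and edgeR called 0% of 16265 genes tested, of which 779 had an unadjusted p under 0.05. The estimate of aged over young was above 0 for 9 of 10 genes, all but Cd36, with a median of 0.29 against -0.04 for all genes (0.70 without young AE 3). Aged libraries lay wholly above the young for Apoa1 and Apoc3, 2 of 10, which held for 3.95% of all genes and for 2 of the 10 enterocyte markers outside these genes. Apoa4 was at 0.65 (95% interval -0.01 to 1.31, edgeR FDR 0.844), Apoc3 at 0.56 (0.01 to 1.10) and Apoa1 at 0.45 (-0.07 to 0.97). Mttp at 0.19 (-0.29 to 0.67), Dgat1 at 0.30 (-0.09 to 0.70), Apoc2 at 0.25 (-0.26 to 0.76), Fabp2 at 0.27 (-0.44 to 0.99) and Apoa1 had intervals within 1 of 0. Apob was at 0.48 (-0.31 to 1.28). For Cd36 (-0.10, -2.22 to 2.02) and Fabp1 (0.01, -1.28 to 1.30) the intervals allowed a change of more than 1 in either direction, and both signs changed when single libraries were left out, Cd36 from -0.54 to 1.31 and Fabp1 from -0.36 to 0.80. The 10 enterocyte markers had a median of 0.29 as well, and their summed level was 34654 to 46611 CPM in young and 44416 to 49938 CPM in aged AE.

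**Figure D4:**
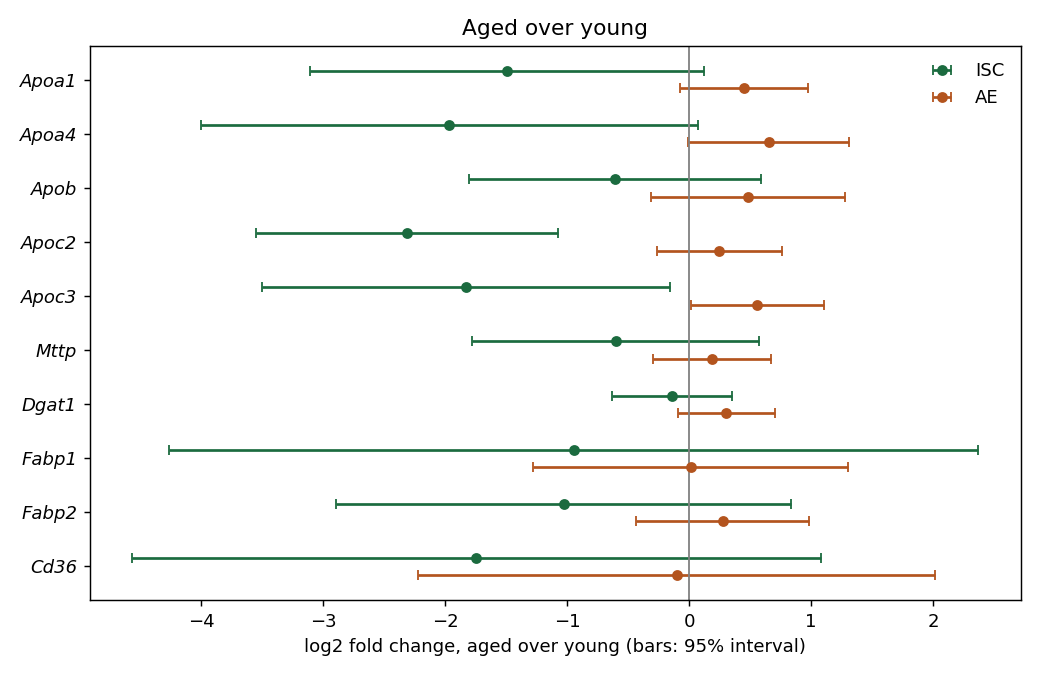
Log2 fold change of aged over young for the 10 genes in ISC and in AE (points: estimate of edgeR's quasi-likelihood fit, bars: 95% interval, 3 libraries per group). The ISC point lies below 0 for 10 of 10 genes and the AE point above 0 for 9 of 10; the bars of ISC are the wider ones for each gene.

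The difference of the age effect between AE and ISC was tested over all 12 libraries. It was above 0 for all 10 genes, with a median of 1.45 on the log2 scale against -0.09 for all genes, and edgeR called 0 of 10. The median was 0.43 without young ISC 3 and 2.56 without aged ISC 2. Of all 17377 genes tested, 0.00575% were called, which is 1 gene, Adora2b, which was named after its value was seen. The 2 largest estimates were those of Apoa4, 2.61 (95% interval 0.77 to 4.45, edgeR FDR 1.00), and Apoc2, 2.54 (1.22 to 3.86, edgeR FDR 0.839). Apoc3 at 2.37 (0.76 to 3.98) and Apoa1 at 1.94 (0.44 to 3.43) followed. With the library code as a replicate block Apoc2 was called, at 2.48 (SE 0.34, edgeR FDR 0.0398), as the 1 gene of the 10, where 0.109% of all genes were called. DESeq2 also called Apoc2 alone of the 10, at 2.56 with an FDR of 0.0140, where 0.247% of all genes were called. Over the 19 alternatives the FDR of Apoc2 ran from 0.0140 to 1.00, and 2 of them called it. Without both young libraries numbered 3 its estimate was 2.08, and that of Fabp1 turned to -0.26. The enterocyte markers outside the 10 genes had a median difference of 1.09, above 0 for 10 of 10.

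The other genes of the pathway were taken as lists by role, whose counts stand beside 28.9% of all genes called higher and 26.7% called lower in AE in young mice, and 30.6% and 34.2% in aged mice. Of 9 genes for uptake and activation of fatty acids, 5 were called higher and 1 lower in AE than in ISC in young mice, and 6 and 1 in aged mice. Slc27a4, a fatty acid transport protein of the enterocyte, was at log2 3.71 (SE 0.45) in young and 4.79 (SE 0.39) in aged mice. Acsl5, an acyl-CoA synthetase, was at 3.05 and 3.61. The fatty acid binding protein genes Fabp5 (2.55, SE 0.82, and 1.86, SE 0.40) and Fabp6 (2.37, SE 0.79, and 4.74, SE 0.73) were called higher as well. In young mice their edgeR FDR was 0.0358 and 0.0432. For Fabp6 the lowest young AE library, at 45.6 CPM, was below the highest young ISC library, at 69.0 CPM. Got2, a mitochondrial transaminase that was also described as a fatty acid binding protein, was the 1 gene called lower (-0.88 and -1.36). Got2 was named after its value was seen. Of 11 genes tested for triglyceride resynthesis, 8 were called higher and 2 lower in young mice, and 8 and 3 in aged mice. Mogat2, which acylates monoacylglycerol in the gut, was 3.45 (SE 0.38) and 4.06 (SE 0.32) higher on the log2 scale. Dgat2, which carries out the same reaction as Dgat1, was 3.28 (SE 0.29) and 4.15 (SE 0.31) higher, beside 2.50 (SE 0.26) and 2.87 (SE 0.23) for Dgat1. Gpat3 (3.09 and 3.99) and Lpin3 (2.73 and 3.11), which act on earlier steps of glycerolipid synthesis, were higher too.

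A list of 12 genes was grouped under the lipidation of apolipoprotein B, among them genes of lipid droplets, lipid breakdown and transcript editing. Of these, 11 were called higher and 0 lower in AE at each age. Cidec, a lipid droplet protein, was at log2 4.37 (SE 0.72) in young and 4.99 (SE 0.29) in aged mice. Apobec1, the enzyme that edits the Apob transcript, was at 3.10 and 3.20, and Tm6sf2, whose product aids lipid loading of the particle, at 3.12 and 3.51. Of 12 genes for the transport of the prechylomicron from the endoplasmic reticulum to the Golgi, 10 were called higher and 0 lower at each age. Sar1b, the COPII GTPase needed for chylomicron export, was at 1.95 (SE 0.31) and 2.32 (SE 0.20), and the COPII coat genes Sec23a (2.66 and 3.05) and Sec24a (1.94 and 2.18) were higher as well. Of 13 transcription regulators of fat absorption, 8 were called higher in young and 7 in aged mice, and 0 lower. Creb3l3, whose product activates apolipoprotein genes, had log2 differences of 3.78 (SE 0.78) and 4.93 (SE 0.51). The coactivator gene Ppargc1a was at 2.85 and 2.92 and Hnf4g, a paralog of Hnf4a, at 2.44 and 2.69. The levels of Creb3l3, 35.1, 27.6 and 157 CPM in the young and 29.4, 77.2 and 20.1 CPM in the aged ISC libraries, were highest in the same libraries as those of Fabp1. Hnf4a, a master regulator of enterocyte genes, was at 1209, 1027 and 965 CPM in the ISC and 808, 1135 and 861 CPM in the AE libraries of young mice, and these groups overlapped. No gene of these lists was called by age in either cell type with edgeR. For these 5 lists and the other genes with apolipoprotein names, medians of aged over young were -0.26 to 0.09 in ISC. In AE these medians were -0.34 to 0.16.

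There were 12 other genes with an apolipoprotein name, among them the receptor gene Apobr and the mitochondrial genes Apoo and Apool. Of these, 10 could be tested in young mice and 8 in aged mice. In AE 3 were called higher and 1 lower in young mice, and 2 and 1 in aged mice. The shares called higher were near the 28.9% and 30.6% of all genes. Apol7a was higher in AE at both ages (log2 5.34 in aged mice), and Apoa2, a protein of high-density lipoprotein, was called in young mice (1.53) and not in aged mice (0.42), a difference that was not tested. Apoe, which is made by many tissues, was lower in AE, at 5.07, 2.23 and 3.10 CPM in young AE against 14.1, 10.1 and 7.52 CPM in young ISC (log2 -1.62, SE 0.37, edgeR FDR 0.00601) and at 2.47, 2.51 and 4.03 against 13.0, 9.17 and 12.8 CPM in aged mice (log2 -2.04, SE 0.28, edgeR FDR 8.57e-05). Apoe lies in the gene cluster of Apoc2 on chromosome 7, where Apoc2 was higher in AE. Apoa5, the neighbour of the cluster on chromosome 9, had 0 counts in all 6 ISC libraries and 41, 21 and 256 counts in young and 32, 25 and 12 counts in aged AE, at most 3.35 CPM. On the scale of CPM per kilobase it was at most 1.33 in AE, where the lowest value of Apoc3 was 861. Of 5 neighbours of that cluster on chromosome 9, 3 were called higher and 1 lower at each age. Of 6 neighbours of Apoc2 in the table on chromosome 7, 5 could be tested in young and 4 in aged mice, and 2 were called higher and 2 lower at each age. Of all genes, 28.9% and 30.6% were called higher and 26.7% and 34.2% lower in young and aged mice, and nothing is read from lists this short.

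Over the 12 libraries the genes whose log2 levels were most like the mean of the 10 were Gpr155, Cyp3a11, Fmo5, Slc27a4 and Acot12, each with a Pearson coefficient of 0.997, among 9384 genes with a mean of at least 10 CPM. The genes most like Cd36 were Acad11, Cyp2c66 and Abhd6, each at 0.994. The 12 points fall into the cell types AE and ISC, and the coefficients are a description.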

How the data were processed

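RNA of sorted ISC and AE was sequenced as 12 libraries, 3 for each cell type and age. The authors trimmed reads with Trim Galore 0.4.4, mapped them to GRCm38 with HISAT2 2.1.0 and counted uniquely mapped reads over the exons of each gene. The deposited counts are raw and cover 34245 genes, of which 13620 had no count in any library. The submitters' processing notes also name DESeq2. The library kit keeps the strand of the RNA, and the strand setting of the counting is not given in the sources used here. Gm10680 and Gm43691, whose exons overlap those of Apoa4 and Mttp on the opposite strand, held at most 0.754% and 0.0423% of the counts of these genes, whereas Gm44805, which overlaps Apoc2 on the same strand, held 99.9 to 100%.

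Columns were placed in groups by their own names, because the code at the head of a title disagrees with what follows it in 8 of 12 titles. Deviations from the group means were alike in libraries that share a code, with correlations across genes of 0.129 to 0.306 in 6 of 6 pairs against -0.229 to 0.0613 in 12 pairs of different codes, and a replicate block by code was fitted as an alternative. Libraries of a group differed by more than counting noise.

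In R 4.3.3, every gene that reached 10 counts in total in a comparison was tested with edgeR 4.0.16 (TMM scaling, glmQLFit and glmQLFTest), with Benjamini-Hochberg adjustment over all genes tested and an FDR threshold of 0.05. DESeq2 1.42.0 was an alternative. The printed CPM were scaled by TMM over all 12 libraries, and log2 CPM used a prior count of 2. A library value of 3 counts corresponds to 0.0360 to 0.327 CPM, and this limit covers counting error only. Exon lengths came from GENCODE vM21, whose span matched that of the count table for 9 of the 10 genes (all but Dgat1, whose end differs). The tests were checked on simulated counts with large planted changes in well-counted genes. That check held no outlying library and no libraries that deviate together, and it did not cover small changes by age. Genes of the wider lists were named if called, at most 4 a list by size of change (Got2 is an exception), and otherwise the 2 of highest mean level were eligible. The 10 genes, the lists and the alternatives were chosen with earlier results of these data known.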

Additional observations from a re-analysis of the deposited data

How the results depend on the processing

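The 10 genes were recomputed under DESeq2, RLE and upper-quartile scaling, no filter and the filterByExpr filter on low counts, a fit of all 4 groups, the replicate block and leaving out each library. Of 698 values 672 kept their direction and their side of the threshold, 9 gained and 5 lost a call and 12 changed sign; DESeq2 gave no adjusted p for Cd36 between AE and ISC in young mice nor for Fabp1 by age in ISC, which are not counted. With the replicate block 1 of 10 genes (Apoc2) was called for the difference of age effects, with DESeq2 also 1, and with DESeq2 1 in ISC by age, against 0 as reported; the block changed no other call but that of Fabp1 in young mice. In AE by age Fabp1 was at -0.00383 in the fit of all 4 groups, and for the difference of age effects at -0.26 without both young libraries numbered 3, an alternative chosen after seeing the data. Leaving out single libraries moved aged over young in ISC from -2.65 to 1.06 for Fabp1, from -2.59 to 0.20 for Cd36 and from -0.28 to 0.10 for Dgat1. In AE the ranges were -0.36 to 0.80 for Fabp1 and -0.54 to 1.31 for Cd36, and for the difference of age effects -1.05 to 2.65 and -0.33 to 3.00. AE over ISC in young mice kept 8 to 10 genes called and in aged mice 10; Cd36 was also lost with no filter (FDR 0.0782 in edgeR). Fabp1 in young mice was called with DESeq2, filterByExpr, the fit of all 4 groups, the block, without young ISC 3 and without both young libraries numbered 3. Across the whole table DESeq2 called 58 genes by age in ISC, 18 in AE and 43 for the difference, against 0, 0 and 1 by edgeR, and the block called 19. The cause of these differences was not tested. Depth did not limit the 10 genes in AE, while Cd36 and Apoc2 in ISC rested on the low counts given with their levels.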
